A study of Equus caballus with 12 samples.

Results

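MicroRNA (miRNA) profiles were compared between lung and heart of the same 4 horses (horses 27, 30, 32 and 34). The comparison took the 4 lung and the 4 heart libraries, 8 of the 12 libraries of the series, and every entry that carried the name of a known horse miRNA, 294 of the 629 entries of the table. The animals were healthy, untreated Polish cold-blooded stallions aged 1 to 2 years. Lung was sampled from the caudal lobe of the right lung and heart from the left ventricle, so each sample is 1 region of a whole organ with a mixture of cell types. Liver of the same horses is used here only for scale beside a value.

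miRNAs are short RNAs that are cut from hairpin precursors and guide the Argonaute proteins to messenger RNAs, mostly to lower their translation and stability. The few bases near the 5′ end, the seed, decide most of the targets, so related miRNAs with the same seed are counted as a family. Several miRNAs are often cut from 1 primary transcript, and some lie in introns of genes and are made together with them. In the heart, the miRNAs of striated muscle (the myomiRs) are the best known, while lung adds airway and alveolar epithelium, a dense capillary bed and resident leukocytes. In bulk tissue, fewer cells of a type and less RNA per cell cannot be told apart.

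The values are normalized counts, which are reads divided by 1 size factor per library. From the steps between the values, the table held 3536536 to 7560746 reads per lung library and 8113895 to 9355513 per heart library, with the fewest in the lung of horse 34. Names with under 6 reads in a library are listed at 0 there, and the smallest value above 0 was 3.71 to 6.79 normalized counts in lung and 6.71 to 10.1 in heart. Known miRNAs took 94.8 to 95.5% of the table in lung and 98.8 to 99.1% in heart.

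In heart, a single miRNA stood above all others. miR-1, which promotes the differentiation of muscle cells, took 46.2, 46.7, 43.2 and 51.7% of the known miRNA total in the hearts of horses 27, 30, 32 and 34, against 0.166, 0.231, 0.176 and 0.235% in their lungs. No miRNA held such a place in lung. There miR-26a led on average with 17.7 ± 2.28% (SD, n = 4 horses, as for all means below), followed by let-7a, which led in horse 27, with 14.6 ± 3.26% and miR-126-5p, from an intron of the endothelial gene EGFL7, with 9.52 ± 2.55%. The next in heart were miR-133a with 7.49 ± 4.79% and miR-26a with 6.84 ± 1.33%. Of the 10 most abundant miRNAs of each tissue, 6 were shared (miR-26a, let-7a, miR-126-5p, miR-143, miR-27b and miR-99a). Listed among the 10 in lung alone were miR-21, let-7f, miR-199a-5p and miR-148a, and in heart alone miR-1, miR-133a, miR-100 and miR-499-5p.

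**Figure D1:**
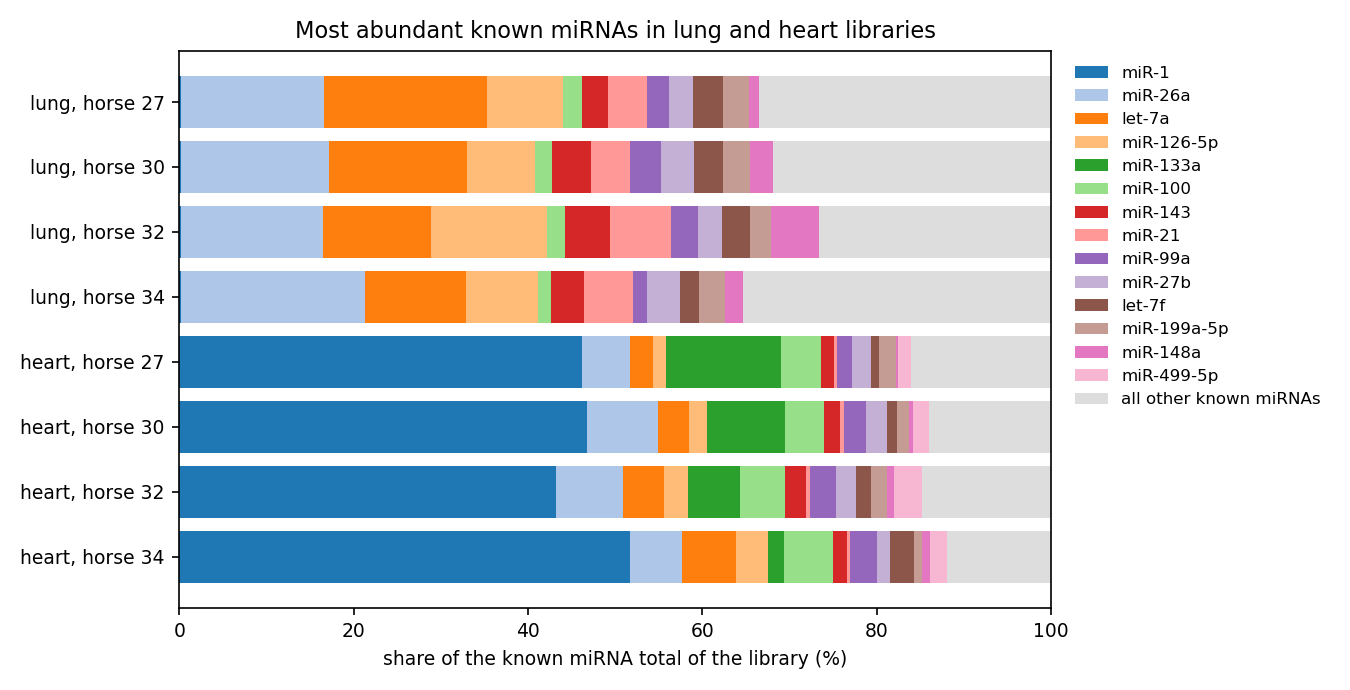
Share of the known miRNA total (x axis, %) taken by each of 14 miRNAs in the 8 libraries (y axis), with all other known miRNAs in grey. The miRNAs are the 10 most abundant of each tissue. miR-1 takes 43.2 to 51.7% of each heart library, and miR-26a and let-7a lead the lung libraries.

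The lung profile was accordingly more even. The 10 most abundant miRNAs took 64.3 to 71.5% of the lung libraries and 80.5 to 84.4% of the heart libraries, with no overlap (exact two-sided permutation test, p = 0.0286, the smallest that 4 against 4 allows). The effective number of miRNAs, the exponential of the Shannon entropy of the shares, was 24.5 to 28.4 in lung and 9.23 to 12.5 in heart (exact permutation p = 0.0286). With miR-1 taken out of the total, the effective number was 24.3 to 28.1 in lung and 22.5 to 25.8 in heart, which overlapped (exact permutation p = 0.0857), and the share of the 10 most abundant averaged 67.3% and 69.8% (p = 0.2). Lung libraries listed 231 to 247 known miRNAs above 0 and heart libraries 221 to 238 (exact permutation p = 0.0857, without regard to the animal). Within horses 27, 30, 32 and 34, lung listed 9, 24, 9 and 10 more than heart, so lung was higher in 4 of 4. At the depth of the shallowest library, the expected number with at least 6 reads was 229 to 231 in lung and 197 to 215 in heart (exact permutation p = 0.0286), and miR-1 is part of that depth.

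Of the 294 known miRNAs, 256 had at least 10 normalized counts in at least 4 of the 12 libraries and were tested. The other 38 did not pass, and 14 of them were at 0 in every lung and heart library. A miRNA was called at an adjusted p under 0.05 (limma) with a difference of 1 or more on the log2 scale, where fold changes are of log2(normalized count + 1). Limma called 99 of the 256 (38.7%), 50 of them higher in lung (19.5%) and 49 lower (19.1%). The 4 lung and the 4 heart values did not overlap in 44.5% of the tested miRNAs, with lung higher in 22.7% and heart higher in 21.9%. Of the 99 calls, 88 were of miRNAs whose values did not overlap, and 87 were made in each of the 8 fits that left out 1 lung or heart library. Fold changes of at least 4 on the log2 scale were found for 18 of the higher and 12 of the lower miRNAs.

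Lung exceeded heart above all in miRNAs of epithelium. The miR-200 family, which holds cells in an epithelial state by repressing the ZEB transcription factors, is made from 2 transcripts, one with miR-200b, miR-200a and miR-429 and one with miR-200c and miR-141. miR-141 was at 465, 671, 1139 and 2017 normalized counts in the lungs of horses 27, 30, 32 and 34 and was listed at 0 in all 4 hearts. Every lung was thus above every heart. With fewer than 6 reads under its name as the ceiling of a 0 in each heart, miR-141 was at least 129-fold higher in lung (log2 fold change 9.85 with a standard error of 0.45, adjusted p = 1.20e-08). This bound does not cover reads that may be counted under a relative's name. miR-429 was at 1254, 1457, 2058 and 2144 in lung, and at 16.2 in the heart of horse 27 and 0 in the other hearts (log2 fold change 9.69, standard error 0.79). miR-200c was at 26187, 36682, 22867 and 18622 in lung, against 148, 50.5, 69.3 and 315 in heart (log2 fold change 7.79 with a standard error of 0.51, adjusted p = 1.63e-07). The lowest lung value of miR-200c was far above the highest heart value. Its means differed 179-fold, and 292-fold once the heart of horse 34 was left out. miR-200a and miR-200b followed with log2 fold changes of 6.72 and 6.54.

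All 6 tested epithelial miRNAs were higher in lung, with a median log2 fold change of 7.25, against 19.5% of all tested miRNAs called in that direction and a median of 0 over all of them. The sixth, miR-205, known from basal cells of stratified and airway epithelium, was at 280.3, 561, 1188 and 760.3 in lung, against 60.9, 29.7, 13.4 and 0 in heart (log2 fold change 5.58, standard error 1.05). Summed, the 6 took 1.41 to 1.90% of the known miRNA total in lung and 0.00266 to 0.00964% in heart.

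Within the family the members did not keep the same proportion from horse to horse. In lung, miR-200c was 56.3- and 54.7-fold above miR-141 in horses 27 and 30 and 20.1- and 9.23-fold in horses 32 and 34, and miR-200b was 21.2-, 19.4-, 12.7- and 8.46-fold above miR-429. In both transcripts the minor member thus gained on the major one in the same 2 horses. These miRNAs have similar sequences, so part of the reads may be counted under a relative's name.

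miR-34b, miR-34c and miR-449a are relatives that are needed for cells to grow many motile cilia, as in the airway. The cell type they came from was not tested here. miR-34c was at 14934, 18884, 28972 and 43877 in the lungs of horses 27, 30, 32 and 34 and at 308, 17.8, 38 and 281 in the hearts (log2 fold change 8.10 with a standard error of 1.33, adjusted p = 4.25e-04). miR-34b-5p, from the same primary transcript, was at 3275, 6085, 6276 and 6733 in lung, against 78.3, 0, 12.3 and 43.7 in heart (log2 fold change 8.51, standard error 1.30). The hearts of horses 27 and 34 held more of both than the hearts of horses 30 and 32. miR-449a was at 513, 1234, 1557 and 583 in lung and above 0 in the heart of horse 27 alone, at 14.9. All 3 tested members of the multiciliated list were higher in lung, against 19.5% of all tested miRNAs. miR-449b did not pass the filter, with 0 to 72.3 in lung and 0 in every heart. miR-34a, the more widely expressed relative, differed far less, with 602 to 882 in lung and 138 to 244 in heart (log2 fold change 1.87, standard error 0.25).

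miR-182, miR-96 and miR-183, which lie in 1 cluster and are best known from sensory epithelia, were all higher in lung, against 19.5% of all tested miRNAs. miR-96 was at 58.0, 179, 302 and 248 in lung and 0 in all hearts (at least 23.7-fold higher), and miR-182 and miR-183 averaged 1681 ± 544 and 1290.4 ± 416 in lung and 37.6 ± 29.2 and 26.2 ± 21.4 in heart. miR-138 was also listed at 0 in every heart and at 321, 309, 166 and 628 in lung (at least 42.9-fold higher, log2 fold change 8.32), and it passed the filter through lung alone. Fitted fold changes of miRNAs at 0 in a tissue depend on the pseudocount and are not bounds.

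**Figure D2:**
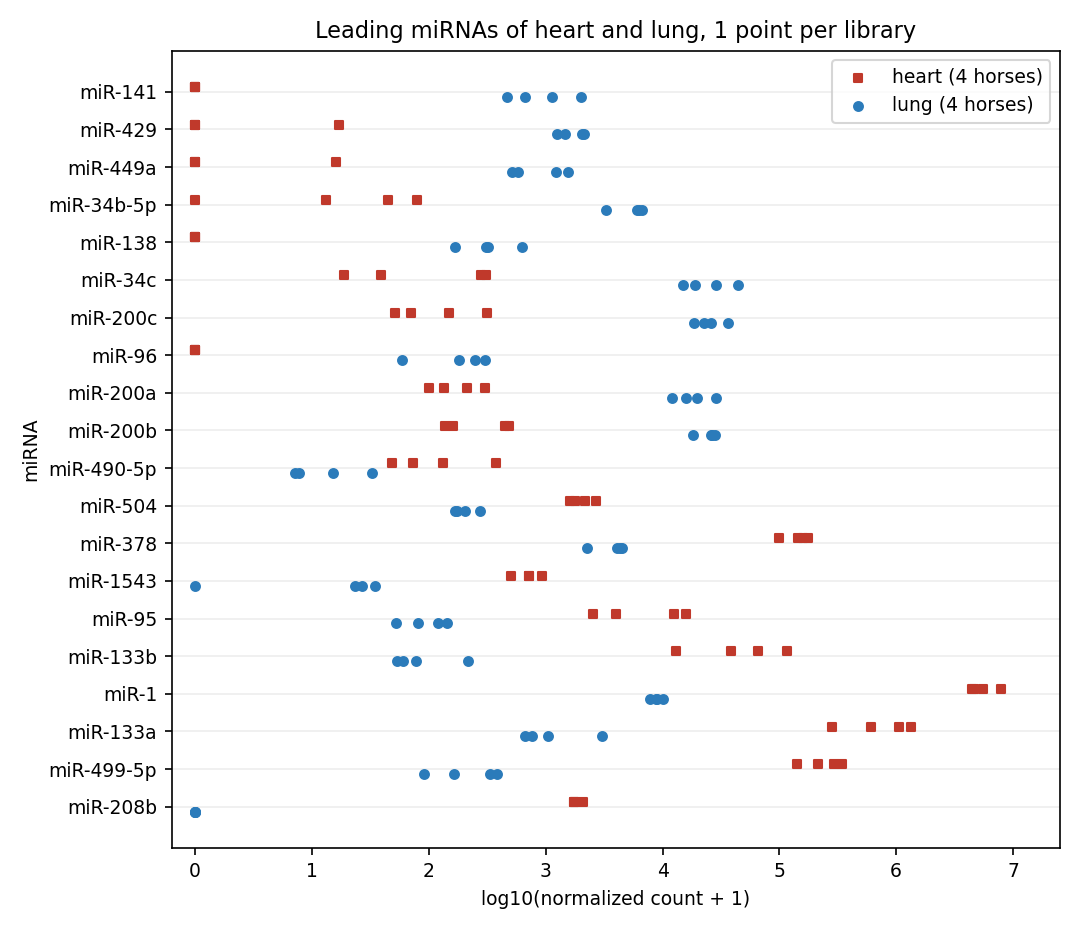
Level in every library, as log10(normalized count + 1) on the x axis, of the 10 called miRNAs highest in heart and the 10 highest in lung by fold change (y axis), among those whose tissues did not overlap and whose higher tissue averaged 100 normalized counts or more. Blue circles are the 4 lungs and red squares the 4 hearts. miR-141, miR-138 and miR-96 sit at 0 in all hearts, and miR-208b at 0 in all lungs.

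In the other direction stood the miRNAs of striated muscle. miR-1 was at 4659914, 5570703, 4465396 and 7824377 normalized counts in the hearts of horses 27, 30, 32 and 34 and at 7886, 10161, 8830.3 and 8965 in the lungs (log2 fold change -9.26 with a standard error of 0.45, adjusted p = 1.26e-08). The means differed 628-fold. miR-133a, which is cut from the same transcripts as miR-1 and favours muscle cell proliferation, was at 1332974, 1066430.3, 613594 and 283203 in heart and 665, 1037, 759 and 3055 in lung (log2 fold change -9.29, standard error 0.69). Heart exceeded lung in every pair of libraries. The means differed 598-fold, or 1004-fold without the lung of horse 34. The heart of horse 34 had the highest miR-1 and the lowest miR-133a of the 4 hearts, while the lung of the same horse had the highest miR-133a of the lungs. The ratio of miR-1 to miR-133a was accordingly 3.50, 5.22, 7.28 and 27.6 in the hearts of horses 27, 30, 32 and 34 and 11.9, 9.79, 11.6 and 2.93 in the lungs.

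The miRNAs of myosin genes followed the same direction. miR-208b, from an intron of the slow myosin gene MYH7, was at 1749, 1769, 2100.4 and 1741 in heart and listed at 0 in every lung, which is at least 377-fold higher in heart. miR-499-5p, from an intron of MYH7B, was at 141724, 215256, 340490.0 and 291587 in heart and 89.4, 163, 382 and 336 in lung (log2 fold change -10.13 with a standard error of 0.51, adjusted p = 1.86e-08). All 6 tested striated muscle miRNAs were lower in lung (median log2 fold change -9.28), where 19.1% of all tested miRNAs were called in that direction. Of the 6, miR-208b and miR-206 reached the filter minimum of 10 normalized counts in the heart libraries alone, so their direction was set by the filter. The count therefore rests on the other 4 (miR-1, miR-133a, miR-133b and miR-499-5p), which also reached that minimum in other tissues. The seventh, miR-208a, did not pass the filter, with 255 in the heart of horse 27 and 0 in the other 7 libraries. The 7 together made up 52.9 to 62.0% of the heart libraries and 0.183 to 0.330% of the lung libraries.

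Other miRNAs high in heart are less tied to muscle by name. miR-378, from an intron of the energy metabolism gene PPARGC1B, was at 143405, 158695, 99724 and 175636 in heart and 4319, 4078, 4506 and 2255 in lung (log2 fold change -5.27, standard error 0.25). miR-95 was at 2549, 3977, 15773 and 12537 in heart and 80.5, 142, 120.0 and 50.9 in lung (log2 fold change -6.18), and miR-1543 averaged 716 ± 175 and 20.5 ± 14.5 (log2 fold change -5.84). Neither set of values overlapped between the tissues. miR-504 and miR-490-5p followed with log2 fold changes of -3.33 and -3.16. The means of miR-490-5p differed 10.7-fold, or 5.71-fold without the heart of horse 27, 17.3-fold without its lung.

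Vessel and leukocyte miRNAs were split. miR-221 and miR-222, neighbours on the X chromosome of mammals that act in endothelial and smooth muscle growth, averaged 14985 ± 4229.6 and 3851 ± 1312 in lung and 1701 ± 122 and 357 ± 62.6 in heart, with log2 fold changes of 3.09 and 3.39. miR-126-5p overlapped, with 312538 to 668930.4 in lung and 142420.2 to 551535 in heart, and did not pass the test on normalized counts (log2 fold change 0.60, adjusted p = 0.205). Of 5 tested leukocyte miRNAs, 3 were higher in lung and 1 was lower, against 19.5% and 19.1% of all tested miRNAs. miR-146a, a brake on innate immune signalling, was at 47669, 35730.5, 78929 and 19309 in lung, against 2403, 2292, 3409 and 4915 in heart (log2 fold change 3.69, standard error 0.39). miR-155, induced in activated leukocytes, averaged 3051 ± 473 and 733 ± 84.0 (log2 fold change 2.05), and miR-150, of mature lymphocytes, 9073 ± 3141 and 3519 ± 1141 (1.35). miR-342-5p, from an intron of the gene EVL, was lower in lung (log2 fold change -1.76), but not on shares (-0.37, adjusted p = 0.266). On normalized counts of all 4, every library of 1 tissue lay above every library of the other. miR-21, raised in many forms of tissue remodelling, was at 211768, 195326, 352516 and 214818 in lung, against 37493, 50004, 43485 and 46171 in heart (log2 fold change 2.43 with a standard error of 0.21, adjusted p = 2.13e-06). miR-486-5p, a miRNA of erythrocytes and of muscle, was higher in every heart (66906 to 160133) than in the lung with the most (66840.1), although the margin was narrow (log2 fold change -1.44, adjusted p = 0.00839). On shares it was level, at -0.05 (adjusted p = 0.944).

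Among miRNAs that slow the cell cycle, 6 of 7 tested members of the miR-15 and miR-16 family and all 4 of the miR-450 and miR-542 cluster were higher in lung, against 19.5% of all tested miRNAs. These members are not independent. miR-424 and miR-503 of the family lie beside the miR-450 and miR-542 cluster, miR-195 beside miR-497 and miR-16 beside miR-15b. miR-16 averaged 15589 ± 2969 in lung and 6831 ± 2091 in heart, and miR-195 was at 6622 to 24883 and 2732 to 8495, which overlapped (log2 fold changes 1.22 and 1.77). miR-450a, miR-450b-5p and miR-450c differed by 1.52, 1.48 and 1.38 on the log2 scale, and miR-450a and miR-450c, with near-constant ratios between 0.562 and 0.783, may share reads. Of 12 tested members of the growth-promoting miR-17 cluster and its paralogs, 3 were higher and 0 were lower by limma, a share close to the 19.5% of all tested miRNAs called higher. At an unadjusted p under 0.05 in limma, 5 of the 12 were higher and 0 lower, where 27.7% of all tested miRNAs were higher and 25.4% lower. On shares of the library, which are described below, 11 of the 12 were higher, where 48.4% of all tested miRNAs were. With miR-1 left out of the total, 6 of the 12 were higher, where 73 of all 256 tested miRNAs were. Among its abundant members, miR-25 averaged 17809 ± 3435 and 10535 ± 2902 (log2 fold change 0.78, under the fold minimum) and miR-92a 27630.3 ± 8050.3 and 34372 ± 3768 (-0.36, adjusted p = 0.203).

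The imprinted DLK1-DIO3 region, which holds a large miRNA cluster in placental mammals, leaned toward heart on normalized counts. Of its 36 tested members, 17 were lower in lung and 0 were higher (25 and 0 at an unadjusted p under 0.05 in limma), where 19.1% of all tested miRNAs were called lower and 25.4% were lower at an unadjusted p under 0.05, with a median log2 fold change of -1.07. miR-411 averaged 933 ± 269 in lung and 2616 ± 599 in heart (log2 fold change -1.52, adjusted p = 0.00122), and miR-379 1078 ± 840.2 and 4185 ± 2845, whose values overlapped. The call of miR-379 (adjusted p = 0.0294) was made in 4 of the 8 fits without 1 library. miR-127 was lower in every lung than in any heart but missed the fold minimum (log2 fold change -0.64). On shares of the library, 1 of the 36 was lower in lung, miR-433, and 2 were higher, where 5.86% and 48.4% of all tested miRNAs were. The median log2 difference of the 36 on shares was 0.15, against 1.08 over all tested miRNAs. The summed share of the region was 0.121 to 0.184% in lung and 0.102 to 0.181% in heart.

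Several large groups had few or no calls on normalized counts, which does not show that their levels were equal. None of the 7 tested let-7 miRNAs, which promote differentiation, and none of 5 smooth muscle and fibroblast miRNAs (miR-143, miR-145, miR-199a-5p, miR-199b-5p and miR-214) was called in either direction by limma. The let-7 list held 8 names, of which let-7i had no named entry, and entries given by sequence alone were not counted. At an unadjusted p under 0.05 and no fold minimum, 0 of the let-7 miRNAs and 1 of the smooth muscle and fibroblast miRNAs, lower in lung, passed. Every heart lay above every lung in 2 of the 5 smooth muscle and fibroblast miRNAs, where this held for 21.9% of all tested miRNAs. The values of all 7 let-7 miRNAs overlapped. On shares, 6 of the 7 let-7 miRNAs and 2 of the 5 smooth muscle and fibroblast miRNAs were called higher in lung, where 48.4% of all tested miRNAs were. miR-143 was at 141190.4 to 259613 in lung and 146473 to 256800.3 in heart, and let-7a at 442102 to 887908 and 274916 to 935643. miR-26a was nearly level, at 787080.0 ± 31390.0 in lung and 808359 ± 189533 in heart (log2 fold change -0.01, standard error 0.18). miR-30c and miR-30e, which lie in 1 cluster, were lower in lung (-1.22 and -1.21), and so was miR-99a (-1.34) together with its relative miR-100 (log2 fold change -2.78, standard error 0.25), at 56556 to 101449 in lung and 463994 to 842627 in heart.

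**Figure D3:**
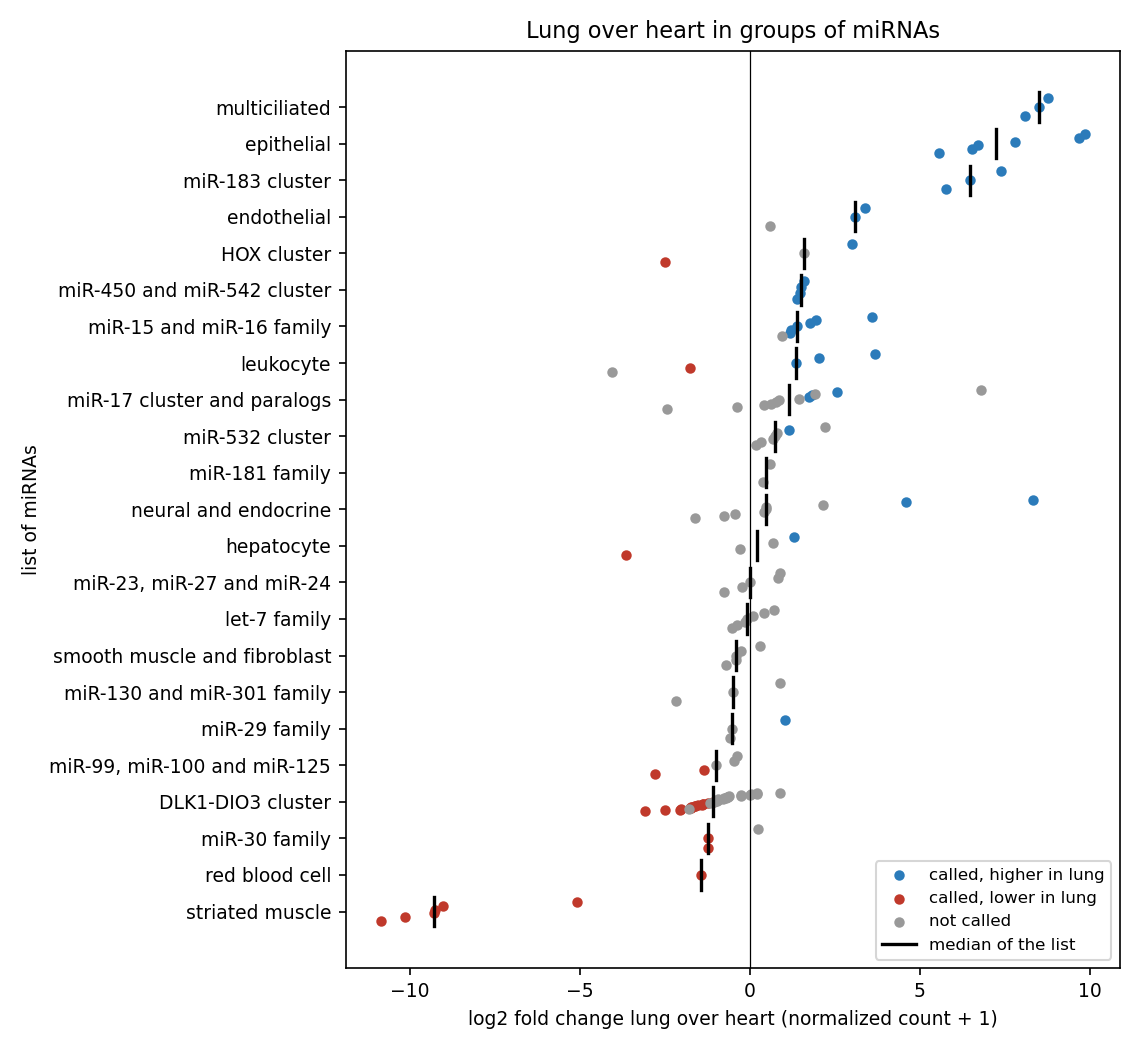
Log2 fold change of lung over heart (x axis, log2 of normalized count + 1) of the tested miRNAs of 23 lists (y axis), ordered by median. Each point is a miRNA, blue if called higher in lung, red if called lower and grey if not called, and the black bar is the median of the list. Striated muscle lies near -9 and the multiciliated and epithelial lists lie at the right.

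The direction of the middle-sized differences depended on the scale. When each value was taken as a share of the known miRNA total of its library and tested in the same way (log2 of share in parts per 1000000 + 1), limma called 139 of 256 (54.3%), 124 higher in lung (48.4%) and 15 lower (5.86%). Shares did not overlap in 52.3% of the tested miRNAs, with lung higher in 46.5% and heart higher in 5.86%. The median log2 fold change over all 256 was 0 on normalized counts and 1.08 on shares. Called on both scales in the same direction were 49 higher and 15 lower miRNAs, while 34 were lower on normalized counts alone, 75 higher on shares alone and 1 higher on normalized counts alone. No miRNA was called in opposite directions.

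The 15 that were lower in lung on both scales were miR-208b, miR-499-5p, miR-133a, miR-1, miR-133b, miR-95, miR-1543, miR-592, miR-378, miR-206, miR-384, miR-504, miR-490-5p, miR-433 and miR-100. Among them miR-592 and miR-384, like miR-208b and miR-206, passed the filter through heart alone. They took 63.4% of the heart total on average and 2.23% of the lung total. The 49 higher on both scales took 12.5% of the lung total and 0.818% of the heart total, and the 75 higher on shares alone took 66.3% and 22.8%. miR-26a took 16.3 to 21.1% of the lung libraries and 5.44 to 8.24% of the heart libraries, a log2 difference in share of 1.38 (standard error 0.16, adjusted p = 1.02e-05), with -0.01 on normalized counts. miR-24, which lies in the miR-23 and miR-27 clusters, let-7f, miR-143 and miR-92a went from below 0 on normalized counts to 1.16, 1.02, 1.14 and 1.03 on shares. miR-99a, miR-30c and miR-30e lost their call, at 0.05, 0.16 and 0.18 on shares.

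Totals without miR-1 lay in between. With miR-1 left out of each library's total, 73 miRNAs were called higher and 34 lower in lung, and the median of all 256 was 0.33. Lists that were called whole had the same direction on normalized counts, on shares and on shares without miR-1. The 6 epithelial, 3 multiciliated, 3 miR-183 cluster and 4 miR-450 and miR-542 cluster members were higher in lung, and the 6 striated muscle members lower. The scales differ by 1 factor per library, and both kinds of share moved the values toward lung. Lists higher in lung could therefore not have turned, and the muscle members differed by far more than the shift. The agreement is no separate support. Of the 6 muscle members, miR-208b and miR-206 passed the filter through heart alone. Of the 36 DLK1-DIO3 members, 17, 1 and 10 were lower on these 3 scales, where 49, 15 and 34 of all 256 were. No spike-in RNA is named in the sources used here, and the values are relative within a library on each scale.

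**Figure D4:**
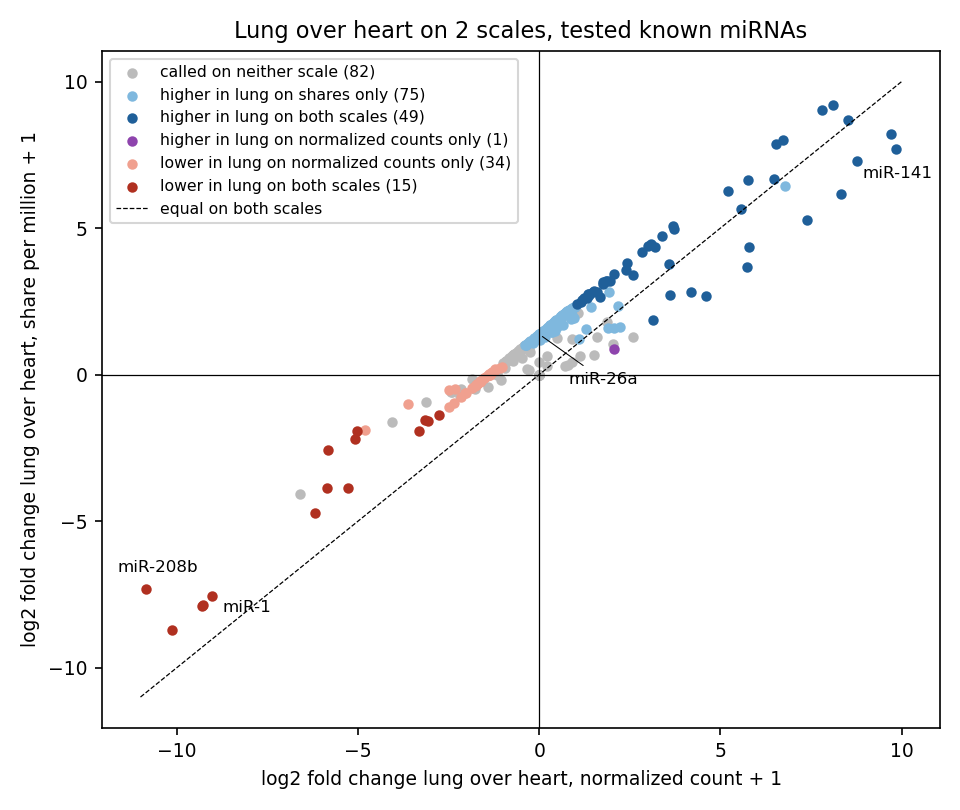
Log2 fold change of lung over heart on normalized counts (x axis) and on shares of the known miRNA total (y axis) for 256 miRNAs, colored by the calls on both scales, with the number of each in the legend. The dashed line marks equal values. The 75 miRNAs called higher on shares alone sit mostly near 0 on the x axis and above 1 on the y axis.

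Ratios of related miRNAs within a library do not depend on the scale, and 10 of 41 pairs with the same family name (24.4%) differed between lung and heart by an adjusted p under 0.05 (limma over the 41 pairs) and at least 1 on the log2 scale. The pairs were set after the levels had been seen. miR-10a and miR-10b lie in the HOXB and HOXD gene clusters. miR-10a exceeded miR-10b 7.55-, 19.6-, 17.1- and 20.4-fold in the lungs of horses 27, 30, 32 and 34, and was 0.213, 0.246, 0.868 and 0.276 times as high in the hearts. The order of the 2 was thus turned in every library, with a difference in log2 ratio of 5.49 (standard error 0.77, adjusted p = 4.27e-04). On levels, miR-10a was higher in lung (36819 ± 11429.5 against 5343 ± 4000.4) and miR-10b lower (2679 ± 1523 against 13575 ± 4229; adjusted p = 0.0151), the latter on normalized counts only.

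miR-92b, which lies apart from the clusters that hold miR-92a, was at 1338, 1484, 1759.6 and 1380.3 in lung, against 46.0, 32.7, 31.3 and 48.8 in heart (log2 fold change 5.21 with a standard error of 0.23, adjusted p = 1.20e-08). miR-92a exceeded it 12.5- to 24.3-fold in lung and 781- to 1011-fold in heart, a difference in log2 ratio of -5.57 (standard error 0.24). miR-34c exceeded miR-34a 21.4- to 51.2-fold in lung, while in heart the ratio was 1.46, 0.0845, 0.156 and 2.04. Between clusters with the same members, the miR-23a, miR-27a and miR-24 cluster gained on the miR-23b, miR-27b and miR-24 cluster in lung. The log2 ratio of miR-27a to miR-27b was 1.57 higher in lung (standard error 0.25, adjusted p = 7.35e-04), with miR-27b 3.18- to 7.46-fold above miR-27a in lung and 10.7- to 14.8-fold in heart, and that of miR-23a to miR-23b 0.88 higher, below the fold minimum. miR-20a over miR-20b and miR-200b over miR-200c were lower in lung by 1.94 and 1.25, and miR-29a gained on miR-29b and miR-29c by 1.62 and 1.55 and miR-30b on miR-30c and miR-30e by 1.45 and 1.44.

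Of the other 31 pairs, 6 had an adjusted p under 0.05 but missed the fold minimum, 5 of them within the let-7 family. let-7a over let-7e and let-7a over let-7f were 0.94 and 0.80 higher in lung (standard errors 0.15 and 0.14). The remaining 25 did not pass limma's test, with standard errors that differed between pairs. miR-133a over miR-133b differed by -0.27 (standard error 0.50), miR-181a over miR-181b by -0.20 (0.19) and miR-30c over miR-30e by -0.01 (0.26). miR-199a-5p was 2.03 to 2.04 times miR-199b-5p in all 8 libraries, so these 2 names do not give separate measurements.

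**Figure D5:**
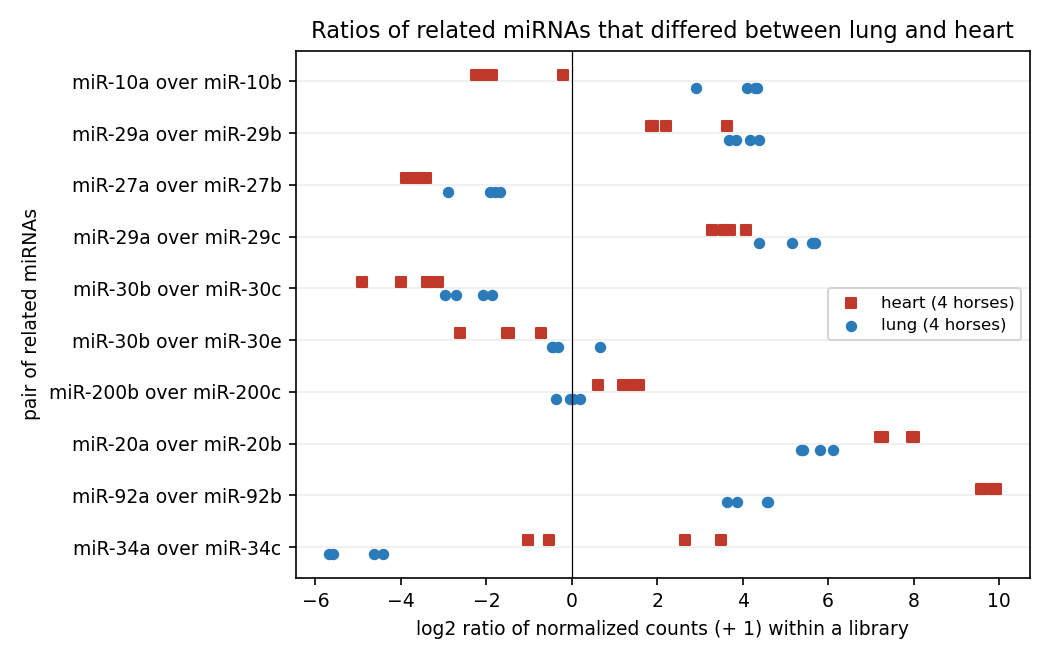
Log2 ratio of 2 related miRNAs within each library (x axis, normalized count + 1) for the 10 pairs that differed between tissues (y axis). Blue circles are the 4 lungs and red squares the 4 hearts. miR-10a over miR-10b lies above 0 in every lung and below 0 in every heart.

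On normalized counts, no group of neighbours in the genome held calls in both directions. By the gene order of the RefSeq horse assembly, which matched 293 of the 294 names, the tested miRNAs formed 36 groups whose genes lie within 10 kb of the next. Of these, 23 had at least 1 called member, 10 had all members called, and 0 had calls in both directions. Of all tested miRNAs, 38.7% were called, 19.5% higher and 19.1% lower in lung. Most groups were pairs with few calls, and whether neighbours shared calls more than other miRNAs was not tested. All members were higher in lung in 7 groups (miR-195 with miR-497, miR-16 with miR-15b, the miR-183 cluster, miR-200c with miR-141, miR-34b-5p with miR-34c, miR-221 with miR-222, and the cluster of miR-424, miR-503, miR-450 and miR-542) and lower in 3 (miR-1 with miR-133a, miR-206 with miR-133b, and miR-30c with miR-30e). miR-206 passed the filter through heart alone, which set its direction, so its group rests on miR-133b. miR-16 has neighbours at 2 places and was also grouped with miR-15a, which missed the fold minimum (0.97). Within a group the sizes could differ widely, as for let-7a and miR-100, at 0.43 and -2.78. On shares this pair was called in opposite directions, at 1.82 and -1.39, and it was the 1 group of the 36 for which this was so.

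Some names were listed at 0 beside high values in the same tissue. miR-103, miR-107a, miR-17, miR-106a and miR-142-5p were listed at 0 in some libraries and above 900 in the others of the same tissue. miR-107a was at 33567, 0, 0 and 30697 in lung and miR-103 at 36505, 50229.8, 27063 and 0, and miR-103 was also at 0 in the heart of horse 27, where miR-107a was at 36521. miR-17 was at 0 in the hearts of horses 30 and 32 and passed the test on shares (log2 difference 6.44, adjusted p = 0.0274) but not on normalized counts (6.79, adjusted p = 0.102). miR-142-5p, of leukocytes, was at 11310, 5832, 0 and 0 in lung and 1381 to 1711 in heart. Standard errors of these 5 were above 3 on the log2 scale. Among the hepatocyte miRNAs, miR-122 was at 234 to 2294 in lung and 737 to 3116 in heart, where liver averaged 1129549, and it did not differ by limma's test (adjusted p = 0.742).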

How the data were processed

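Small RNA was sequenced from lung, heart and liver of 4 horses (NEBNext small RNA kit, NextSeq550). The authors counted reads of 18 to 25 bases with sRNAbench against miRBase and EquCab3.0, with a minimum of 6 reads. The submitters' notes name Trimmomatic and BWA instead, without saying which made the table. The deposited signal values are counts the authors divided by DESeq2 size factors. Within each library 100% of the values were whole multiples (tolerance 0.01) of the smallest value divided by 6, which gave the reads per library. Columns of the authors' comparison of liver with lung (log2 fold change, standard error, statistic, p and adjusted p) were not used.

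Known miRNAs that reached 10 normalized counts in 4 or more libraries were fitted as log2(value + 1) with limma 3.58.1 (R 4.3.3, mean-variance trend) over all 12 libraries with a mean per tissue. Shares of the known miRNA total were fitted likewise, in parts per 1000000. p-values were adjusted by Benjamini-Hochberg over the 256 miRNAs. Single values were compared by exact two-sided permutation over the 4 lung and 4 heart libraries (Python 3.11.15, scipy 1.17.1). Each tissue sample came from the same 4 animals, so the p-values cover the spread between 4 horses. The horse number marks the animal and pairs the libraries, but the deviations of lung and heart of the same horse correlated at only -0.13, 0.12, 0.10 and -0.15.

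The members and lists were chosen with earlier results of these data known. Named were the 10 called miRNAs with the largest fold change in each direction (no overlap, mean of at least 100), the 10 most abundant of each tissue, the 3 most abundant of each list and the 10 most abundant whose call depends on the scale. Others, such as miR-205, miR-92b, miR-155, miR-34a, miR-183, miR-433, miR-20b, miR-17, miR-103 and miR-107a, were chosen after their values were seen. On simulated data with 100 of the 256 miRNAs changed, the fit called 64.4% of those changed by 1.5 and 89.6% of those changed by 3 on the log2 scale, and 1.03% of the rest. Some items are not analysed here.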

Additional observations from a re-analysis of the deposited data

Results flagged for a closer look

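Libraries that stood apart within their tissue were looked for in 161 groups of 4 values, where chance alone marks about 1 in 20, and 11 were found. The lung of horse 34, which had the fewest reads of the 8 libraries, gave 6 of them, all on the high side: miR-133a at 3055 normalized counts, miR-133b at 216, miR-144 at 1349.7, miR-29a at 63069, miR-29c at 3007 and miR-30e at 19965. miR-133a and miR-133b are miRNAs of striated muscle, but miR-1 in the same lung (8965) lay within the range of the other lungs. miR-21 stood out in the lung of horse 32, at 352516. In heart, miR-429 and miR-449a were above 0 in horse 27 alone, at 16.2 and 14.9, miR-196b was at 26.8 in horse 30 and miR-208b at 2100.4 in horse 32. Entries named by their sequence, which the comparison of known miRNAs left out, made up 4.93% of the table in lung on average and 0.889 to 1.24% in heart.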

How the results depend on the processing

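The scaling decided how the calls were split. On normalized counts 50 miRNAs were called higher and 49 lower in lung. Scaled to the filtered reads of each library these were 102 and 19, and with shares in place of normalized counts 124 and 15. With miR-1 left out of the total, the shares gave 73 and 34. The sign turned on shares for 26 tested miRNAs that were called on at least 1 of the scales, 15 on shares and 11 on normalized counts. Those among the miRNAs chosen by the naming rule were let-7f (1.02), miR-143 (1.14), miR-24 (1.16), miR-26a (1.38), miR-30c (0.16), miR-30e (0.18), miR-92a (1.03) and miR-99a (0.0496). The higher and lower calls were 47 and 55 with TMM scaling, 49 and 49 with a pseudocount of 0.5, 49 and 48 with 10, 53 and 52 with no filter, and 62 and 56 without the fold minimum.

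With the horse as a block (paired fit), 97 were called on normalized counts (48 higher, 49 lower), 96 of them shared with the 99, 138 were called on shares (123 higher, 15 lower) and 10 related pairs differed. Leaving out 1 horse or library gave 87 to 104 calls on normalized counts (43 to 53 higher, 42 to 52 lower) and 125 to 148 on shares (109 to 130 higher, 14 to 18 lower). Leaving out 1 horse gave 7 to 11 pairs, a lung minus heart difference of 9.33 to 14.3 detected miRNAs, 14.7 to 17.1 in effective number, -17.2 to -13.5 percentage points for the 10 most abundant and -29.3 to -28.1 for the most abundant. The difference in detected miRNAs was 24.8 at equal depth (exact permutation p = 0.0286), and without miR-1 it was -2.50 for the 10 most abundant (exact permutation p = 0.2) and 2.64 for the effective number (exact permutation p = 0.0857).

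Count tests, the ratio of the 2 arms of a hairpin (both arms passed the filter for miR-671 alone) and seed families (no mature sequences were at hand) were not run. Depth limits low values, since fewer than 6 reads are listed as 0.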

Other observations

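Beside the named miRNAs, 267 entries given by their sequence alone were above 0 in a lung or heart library. They were 18 to 25 bases long, and the 10 most abundant held 96.6% of their sum in lung and 89.4% in heart. Of the 31 with a mean of at least 100 normalized counts, 2 were higher in every lung than in any heart, 4 were higher in every heart and 25 overlapped. The sequences shown are those higher in every lung and 1 of those higher in every heart with a relative of the same seed, with bases 2 to 8 in capitals.
Lung entry 1: uGAGGUAGuaguuugugcuguug
Lung entry 2: gUGAAAUGuuuaggaccacuaga
Heart entry 1: aCUGGACUuggagucaggagguu
Heart entry 2: aCUGGACUuggagucagaa

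Lung entry 1 was at 50870 to 115576 in lung and 17516 to 40662 in heart, a 2.77-fold difference of the means. No mature sequences were at hand, so whether Lung entry 1 belongs to a family of the named miRNAs was not tested. Lung entry 2 was at 4230, 3033, 3157 and 2069 in the lungs of horses 27, 30, 32 and 34 and at 234, 149, 160 and 269 in the hearts, 15.4-fold lower. Heart entry 1 was at 20.9, 0, 24.6 and 0 in lung and at 662.6, 432.5, 371 and 390 in heart. Heart entry 2, with the same seed, was at 7406, 10206, 0 and 4210 in heart and 0, 106, 0 and 88.2 in lung, so its groups overlapped through the heart of horse 32.

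Of the miRNAs listed at 0 in every library of 1 tissue, miR-708 was at 997 in the heart of horse 27 and 0 in the other 7 lung and heart libraries. Among the 8 lung and heart libraries, miR-144, of red blood cells, was above 0 only in the lung of horse 34. miR-671, with both arms past the filter, had equal values for the arms in 5 of the 8 libraries.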
